A study of Mus musculus with 8 samples.

Results

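The common gamma chain cytokine receptors are the receptor chains through which lymphocytes respond to interleukin (IL)-2, IL-4, IL-7, IL-9, IL-15 and IL-21. The family was taken as 8 genes, Il2ra, Il2rb, Il2rg, Il4ra, Il7r, Il9r, Il15ra and Il21r, and each was read from the array probe set annotated with that gene symbol alone. A probe set was matched for 7 of the 8, out of 22180 genes with such a probe set, and each of the 7 had 1 probe set and passed the filter on low levels. Il2rg, the shared gamma chain itself, matched no probe set by this rule and was not analysed here. Gene expression was measured on 8 Affymetrix arrays of CD4+ T cells from a mouse model of colitis. In each of 4 replicate experiments, naive wt and naive Irak1-/- T cells, both labelled C57BL/6, were injected together into Rag1-/- mice. The wt cells carry the CD45.1 form of CD45 and the Irak1-/- cells the CD45.2 form. The sample labels describe both as CD4+CD62L+ T cells. After 14 days the cells of 2 recipients were pooled, each population was sorted as CD3+ CD4+ cells from mesenteric lymph nodes, and 1 wt and 1 Irak1-/- array was made, so that the arrays form 4 pairs. Rag1-/- hosts have no T or B cells of their own but keep myeloid and natural killer (NK) cells, and both populations shared this host. The wt and Irak1-/- cells also differ in their CD45 form, and the age and sex of the mice and the deleted part of Irak1 were not given in the sources used here.

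Each of these receptors joins a further chain or chains to the shared gamma chain. Binding of a cytokine brings the chains together and activates the kinases JAK1 and JAK3, which phosphorylate STAT factors, chiefly STAT5 for IL-2, IL-7, IL-9 and IL-15, STAT6 for IL-4 and STAT3 for IL-21. In CD4+ T cells IL-7 keeps naive and memory cells alive, IL-2 drives the growth of activated cells and the upkeep of regulatory T cells, and IL-4 and IL-21 shape helper subsets. IRAK1, the kinase missing from the Irak1-/- cells, passes signals from receptors of the IL-1 family and Toll-like receptors to NF-kappaB, a factor that also acts on Il2ra.

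None of the 7 receptor genes differed between Irak1-/- and wt cells after adjustment over all genes. Differences, given throughout as Irak1-/- minus wt on the log2 scale, ran from -0.27 for Il9r to 0.10 for Il21r, with standard errors from 0.107 to 0.149 (limma adjusted p from 0.741 to 0.987, n = 4 pairs). The 95% confidence intervals reached at most a 1.50-fold lower level, for Il2ra, and a 1.27-fold higher level, for Il21r. Il9r was lower in 4 of 4 pairs and Il21r was higher in 4 of 4 pairs. Il2ra was lower in 3 of 4 pairs and was the member whose Irak1-/- arrays lay farthest apart. At an adjusted p under 0.05, 0 of the 7 members passed, beside 10 of 13308 genes tested (0.0751%), and at an unadjusted p under 0.05, 1 of 7 passed, beside 892 of the 13308 (6.7%).

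**Figure D1:**
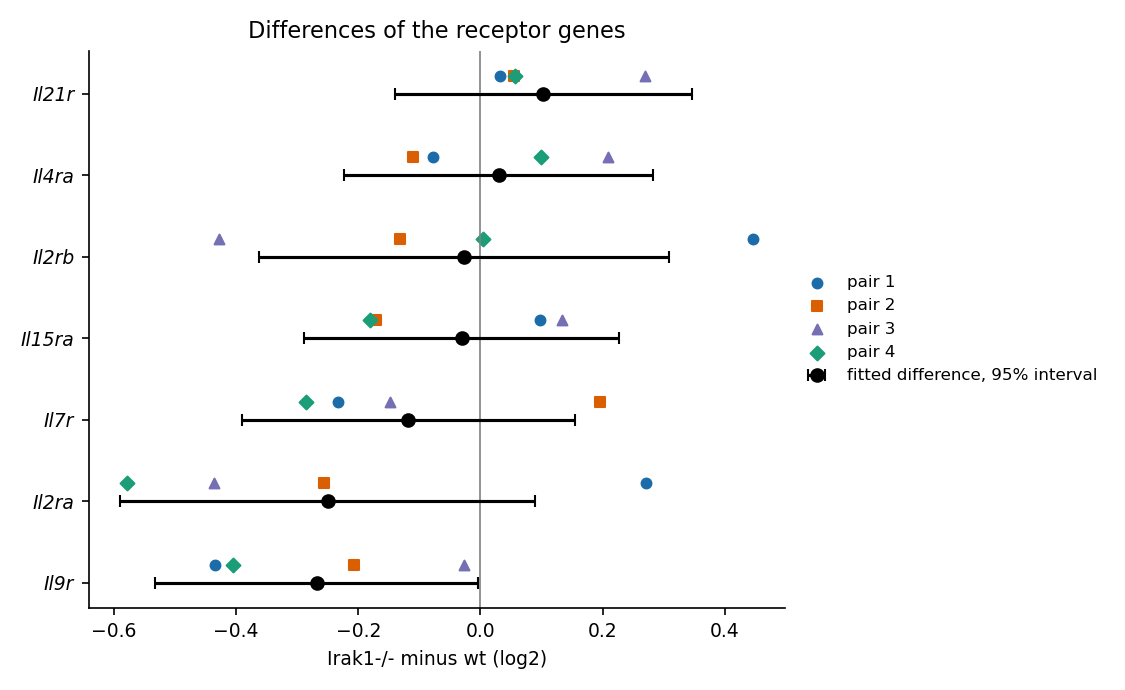
Fitted differences (Irak1-/- minus wt, log2, horizontal axis) of the 7 receptor genes, as black points with 95% confidence intervals, and the 4 within-pair differences as coloured symbols. The fitted values run from -0.27 for Il9r to 0.10 for Il21r, and the pairs of Il2rb lie between -0.43 and 0.45.

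The arrays were alike in scale, with medians between 4.25 and 4.31, and their number limits the precision of every value. Over the 13308 genes tested, the Irak1-/- array of replicate 3 correlated with the others at 0.957 to 0.970, while the other 7 correlated with one another at 0.976 to 0.986, so values without it or its pair are given below for the members it moved most and for each list. The level of Irak1 itself was 6.77 ± 0.332 (SD, n = 4) over wt and 6.84 ± 0.167 over Irak1-/- arrays, which does not check the genotype without the position of the deletion. The T cell label was checked against 12 markers, of which 10 were measured, and their mean log2 level was between 9.60 and 9.82 in wt and between 9.53 and 9.85 in Irak1-/- arrays. Of 15 myeloid markers, 14 were measured, and their mean level was between 4.53 and 4.87 in wt and between 5.60 and 6.32 in Irak1-/- arrays. Of 12 myeloid markers tested, 5 rose and 0 fell, and the median difference was 1.39. Without pair 3 these were 4 and a median of 1.48. Some of the 12, Lyz2 and Clec4a3 among them, passed the level filter only through their Irak1-/- levels. Without that filter the median was 0.88. These arrays have no true 0, and Cd14 and Mrc1 lay under the level filter. Myeloid cells express several of the receptors described here, and the part of the myeloid signal in the receptor levels was not tested. In such sorted bulk samples, fewer cells with a transcript and less of it per cell cannot be told apart.

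Il2ra encodes CD25, the alpha chain that gives the IL-2 receptor its high affinity and that T cells raise on activation. Its level was 8.25, 8.18, 8.12 and 8.11 in the wt arrays of replicates 1 to 4, and 8.52, 7.93, 7.68 and 7.53 in the Irak1-/- arrays of the same replicates. The wt arrays lay close together, while the Irak1-/- array was the higher one of pair 1 and the lower one of pairs 2, 3 and 4, so the groups overlapped. The fitted difference was -0.25 (SE 0.149, 95% confidence interval -0.59 to 0.09, adjusted p = 0.856). Without pair 1 it was -0.42 (SE 0.132, adjusted p = 0.644), and without the Irak1-/- array of replicate 3, in a fit without pairs, it was -0.17 (SE 0.195, adjusted p = 0.992). The myeloid markers had mean within-pair differences of 0.89, 1.55, 1.43 and 1.76 in pairs 1 to 4, so the pair in which Il2ra was higher had the smallest myeloid difference. Other lists were also highest in pair 1. The T cell markers had 0.25, -0.04, -0.16 and 0.08, and the transcription factors listed below had 0.13, -0.11, -0.29 and -0.09. The pattern over pairs was thus not particular to Il2ra, and none of these relations was tested.

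**Figure D2:**
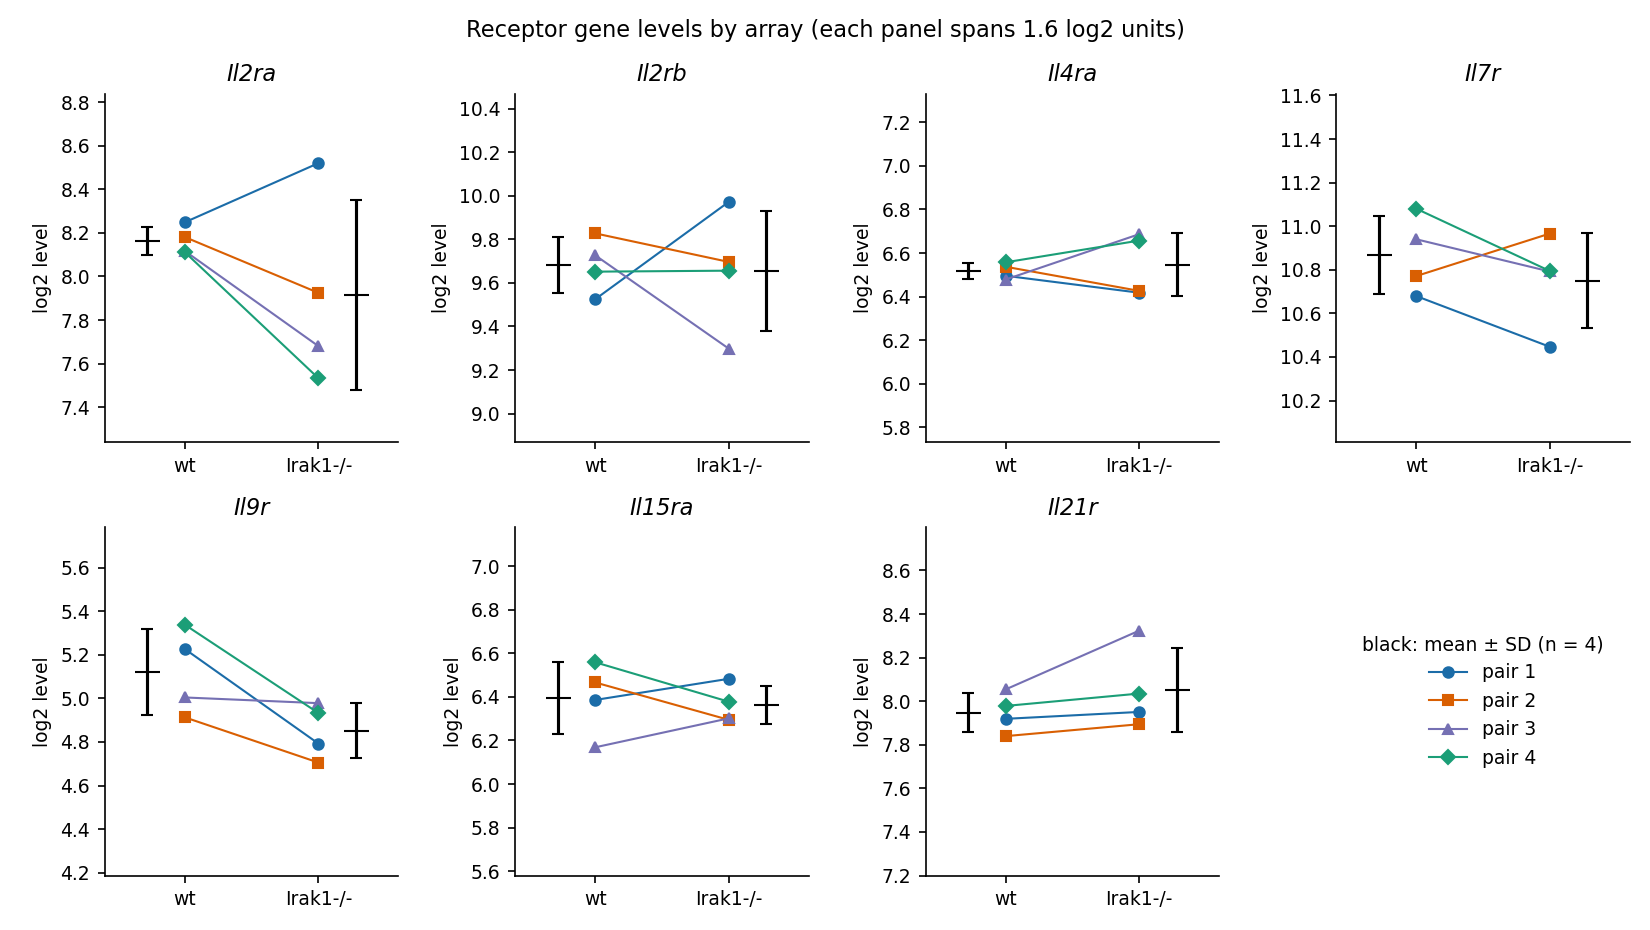
Log2 level (vertical axis) of the 7 receptor genes on each wt and Irak1-/- array, with a line joining the arrays of a pair and black bars for the mean ± SD of 4 arrays. All panels span the same number of log2 units, and the Irak1-/- arrays of Il2ra spread from 7.53 to 8.52 beside 8.11 to 8.25 in wt.

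The window around the Il2ra start site is shown because it holds a match to the NF-kappaB consensus and IRAK1 acts upstream of NF-kappaB, and that of Il7r is shown beside it because it holds GAS, ETS and RUNX matches. Each runs from 250 bases before to 50 bases after a start site, is taken from RefSeq (GRCm38.p6) and reads 5′ to 3′ on the strand of the gene, with matches on either strand in capitals. The Il2ra window is chr2:11642542-11642841 on the plus strand, and the Il7r window is chr15:9529827-9530126 on the minus strand.
Il2ra: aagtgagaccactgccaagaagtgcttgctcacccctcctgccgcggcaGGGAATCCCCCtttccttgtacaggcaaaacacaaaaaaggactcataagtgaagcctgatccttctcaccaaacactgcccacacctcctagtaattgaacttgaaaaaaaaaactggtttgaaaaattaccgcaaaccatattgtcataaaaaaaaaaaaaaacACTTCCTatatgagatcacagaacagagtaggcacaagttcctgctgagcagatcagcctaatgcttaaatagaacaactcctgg
Il7r: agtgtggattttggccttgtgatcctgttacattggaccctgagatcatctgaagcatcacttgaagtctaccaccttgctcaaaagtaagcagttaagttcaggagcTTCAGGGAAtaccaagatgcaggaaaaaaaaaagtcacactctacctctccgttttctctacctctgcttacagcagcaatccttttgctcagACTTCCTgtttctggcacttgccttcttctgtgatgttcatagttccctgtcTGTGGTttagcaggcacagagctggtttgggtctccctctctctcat
In Il2ra, the first run of capitals holds overlapping matches to the NF-kappaB consensus, from -201 to -191 relative to the start site. The second run, from -35 to -29, is the ETS core AGGAAGT on the opposite strand. In Il7r, the runs are a GAS motif, TTCNNNGAA, which STAT factors bind, from -142 to -134, the ETS core from -49 to -43, and the RUNX core TGTGGT from 4 to 9. Of 32851 windows of this kind in the RefSeq table, 8.46% held the NF-kappaB consensus, 8.3% the GAS motif, 9.35% the ETS core and 16.8% the RUNX core. Windows were found for 7 of the 8 family members. Il4ra also held the NF-kappaB consensus, and Il2rg, Il9r and Il21r held the RUNX core. The FOXO core GTAAACA, in 3.65% of all windows, was found in Il21r, where it overlaps the RUNX match, and the T-box core GGTGTGA, in 3.98%, was found in none of the 7. Neither window of Il15ra held a match. A match is a description of letters and says nothing of binding in these cells.

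Il2rb encodes CD122, the signalling beta chain that the IL-2 and IL-15 receptors share. It read 9.52, 9.83, 9.73 and 9.65 in the wt arrays of replicates 1 to 4 and 9.97, 9.70, 9.30 and 9.66 in the Irak1-/- arrays. The Irak1-/- arrays held both the highest and the lowest of the 8 levels, in replicates 1 and 3, and the groups overlapped. The fitted difference was -0.03 (SE 0.148, 95% confidence interval -0.36 to 0.31, adjusted p = 0.987), and it was 0.11 (SE 0.144) without pair 3, whose Irak1-/- array stood apart. The within-pair differences of Il2rb were 0.45, -0.13, -0.43 and 0.004, beside 0.27, -0.26, -0.44 and -0.58 for Il2ra. The 2 genes had the same sign in pairs 1, 2 and 3 and opposite signs in pair 4, which was not tested.

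Il15ra encodes the alpha chain that binds IL-15 and presents it to neighbouring cells. It lies next to Il2ra on chromosome 2, with no other protein-coding gene of the RefSeq table in between. Levels were 6.39, 6.47, 6.17 and 6.56 in wt arrays and 6.48, 6.29, 6.30 and 6.38 in Irak1-/- arrays of replicates 1 to 4. The Irak1-/- levels fell inside the range of the wt levels. The difference was -0.03 (SE 0.113, 95% confidence interval -0.29 to 0.23, adjusted p = 0.977), with 2 of 4 pairs lower. Its sign turned without pair 2 (0.016) and without pair 4 (0.019). Within pairs, Il15ra differed by 0.10, -0.17, 0.13 and -0.18. It had the sign of its neighbour Il2ra in pairs 1, 2 and 4 and the opposite sign in pair 3, which was not tested.

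Il7r encodes CD127, the IL-7 receptor chain that marks naive and memory T cells and is lowered on acute activation. Its levels were 10.68, 10.77, 10.94 and 11.08 in wt arrays and 10.45, 10.97, 10.79 and 10.80 in Irak1-/- arrays. The lowest level came from the Irak1-/- array of replicate 1 and the highest from the wt array of replicate 4, and the groups overlapped. The Irak1-/- array was lower in 3 of 4 pairs, and the difference was -0.12 (SE 0.120, 95% confidence interval -0.39 to 0.15, adjusted p = 0.925). Without pair 2, the pair with a higher Irak1-/- level, the value was -0.22, with an adjusted p of 0.910 or more whichever pair was left out. Crlf2, which joins Il7r to form the receptor of the cytokine TSLP, had a difference of -0.13 (SE 0.113, adjusted p = 0.910), or -0.20 without pair 3.

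Il4ra encodes the IL-4 receptor alpha chain, which pairs with the gamma chain or, for IL-13 as well, with IL-13 receptor alpha 1. It read 6.50, 6.54, 6.48 and 6.56 in wt arrays and 6.42, 6.43, 6.69 and 6.66 in Irak1-/- arrays. The wt arrays lay inside the range of the Irak1-/- arrays, of which 2 were lower and 2 higher than all of the wt arrays. The difference was 0.03 (SE 0.111, 95% confidence interval -0.22 to 0.28, adjusted p = 0.977), and it was -0.03 without pair 3 and -0.02 without the Irak1-/- array of replicate 3 in a fit without pairs. Il13ra1, the partner chain, which myeloid cells carry, read 4.04, 3.79, 3.64 and 3.78 in wt arrays and 4.03, 4.30, 4.12 and 4.28 in Irak1-/- arrays. It was higher in 3 of 4 pairs, with a difference of 0.37 (SE 0.126, adjusted p = 0.603), or 0.33 without pair 3. The median of Il13ra1 and Crlf2 went from 0.12 to 0.07 without pair 3. The wt mean of Il13ra1 was 3.81, under the lowest mean level tested of 3.90, so it passed the level filter only through its Irak1-/- levels. Pair 1, in which it was not higher, was also the pair with the smallest myeloid difference, and the part of the myeloid signal in it was not tested.

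Il21r encodes the IL-21 receptor chain of T, B and NK cells, and is the next protein-coding gene to Il4ra on chromosome 7. Levels were 7.92, 7.84, 8.05 and 7.98 in wt arrays and 7.95, 7.89, 8.32 and 8.04 in Irak1-/- arrays. The Irak1-/- array was the higher one in all 4 pairs, by 0.03, 0.05, 0.27 and 0.06, and the largest of these came from the array that stood apart. The groups overlapped. The fitted difference was 0.10 (SE 0.107, 95% confidence interval -0.14 to 0.35, adjusted p = 0.927), and it was 0.05 without pair 3 and 0.012 without the Irak1-/- array of replicate 3 in a fit without pairs. A higher level in 4 of 4 pairs was found for 5.26% of all genes tested. The neighbours Il4ra and Il21r had the same sign in pairs 3 and 4 and opposite signs in pairs 1 and 2, which was not tested.

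Il9r encodes the receptor chain for IL-9, a cytokine of helper T cell subsets that acts on mast cells and T cells. It read 5.23, 4.91, 5.004 and 5.34 in wt arrays and 4.79, 4.71, 4.98 and 4.93 in Irak1-/- arrays. The Irak1-/- array was the lower one in all 4 pairs, by -0.43, -0.21, -0.03 and -0.41, and the groups overlapped. The difference was -0.27 (SE 0.116, 95% confidence interval -0.53 to -0.004, limma unadjusted p = 0.0472, adjusted p = 0.741), a 1.20-fold lower level. Il9r was the 1 member with an unadjusted p under 0.05, in the direction in which 3.82% of all genes tested passed that threshold, and 8.91% of all genes were lower in 4 of 4 pairs. Its unadjusted p was 0.0533 in a limma fit without pairs (adjusted p = 0.971) and 0.0359 in a limma fit after quantile normalization (adjusted p = 0.674). The limma unadjusted p was 0.0602 without the level filter and 0.0710 with trend and robust eBayes. It lay between 0.0383 and 0.0479 with the random block, median centring, the 60th percentile filter and both other uses of the probe sets. Without the Irak1-/- array of replicate 3, in a limma fit without pairs, it was 0.0367. With pair 1, 2, 3 or 4 left out, the limma unadjusted p was 0.157, 0.0872, 0.0199 and 0.161, in that order. The adjusted p was 0.817 without pair 1 and 0.643 without pair 3, where the difference was -0.35 (SE 0.121). The background of the arrays is unknown, and with it the margin by which Il9r lies above background.

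The spread between arrays of a group was wider in Irak1-/- than in wt arrays for 5 of the 7 members, as for 59.0% of all genes tested. With replicate 3 left out it was wider for 6 of the 7 members and for 47.4% of all genes, so the share over all genes turned. For Il2ra the SD was 0.0642 in wt and 0.435 in Irak1-/- arrays, and 0.962% of genes had a larger ratio of the SDs. For Il4ra it was 0.0364 in wt and 0.145 in Irak1-/- arrays, and 4.35% of genes had a larger ratio. Il9r and Il15ra had the narrower spread in Irak1-/- arrays, which for Il15ra turned with replicate 3 left out (SD 0.0865 in wt and 0.0944 in Irak1-/- arrays). In the same arrays, the SDs of Il2ra were 0.0684 and 0.497, and those of Il21r were 0.0695 and 0.0708. These SDs rest on 4 or 3 arrays each and were not tested.

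**Figure D3:**
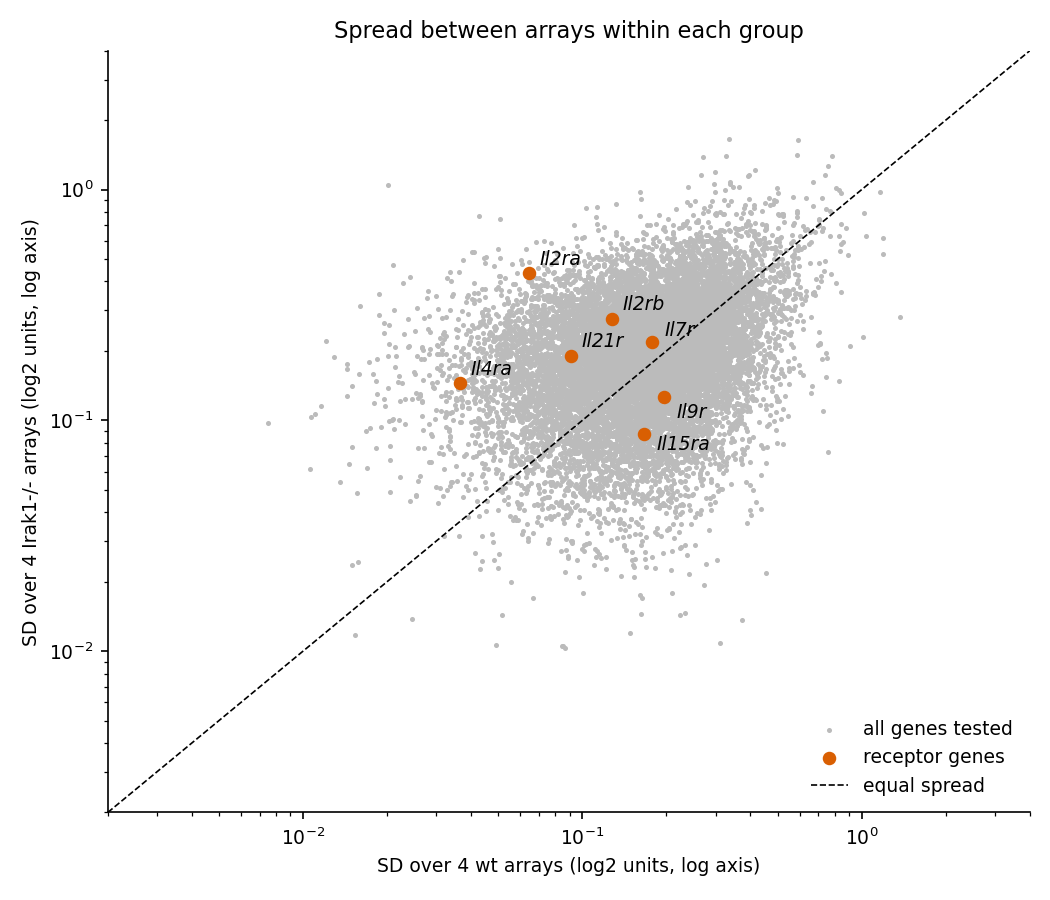
SD over the 4 Irak1-/- arrays (vertical, log axis) against SD over the 4 wt arrays (horizontal, log axis), in log2 units, for all 13308 genes tested in grey and the 7 receptor genes in orange. Il2ra lies above the dashed line of equal spread, at 0.0642 and 0.435, and Il9r and Il15ra lie below it.

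The ligands of the family were mostly under the level filter. Of 6 listed, Il4, Il7, Il9 and Il15 lay under the level filter and Il2 and Il21 were tested, of which 0 passed over all genes. Il2, the growth factor of activated T cells, read 6.03, 5.78, 6.55 and 6.41 in wt arrays and 6.43, 6.24, 7.55 and 7.10 in Irak1-/- arrays. It was higher in 4 of 4 pairs, with overlapping groups and a difference of 0.64 (SE 0.130, 95% confidence interval 0.34 to 0.93, adjusted p = 0.244). Il21, made by follicular helper and Th17 cells, read 6.46, 6.50, 6.37 and 5.87 in wt arrays and 6.75, 6.46, 6.68 and 6.67 in Irak1-/- arrays. Its difference was 0.34 (SE 0.144, adjusted p = 0.736), with 3 of 4 pairs higher and the largest gap in pair 4, whose wt array was the lowest of the 8. Within pairs 1 to 4 Il2 differed by 0.40, 0.47, 1.001 and 0.69. Its receptor chain Il2ra differed by 0.27, -0.26, -0.44 and -0.58, and Il2rb by 0.45, -0.13, -0.43 and 0.004. All 3 genes were thus higher in pair 1, and pair 3 holds the array that stood apart. Without pair 3 the difference of Il2 was 0.52 (SE 0.124, adjusted p = 0.449), and the median of both ligands went from 0.49 to 0.43. Within pairs 1 to 4 Il21 differed by 0.29, -0.04, 0.31 and 0.80, and Il21r by 0.03, 0.05, 0.27 and 0.06. No relation between a ligand and its receptor chains was tested.

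The JAK kinases and STAT factors behind the receptors did not pass. Of 7 listed, 5 were tested, with differences from -0.05 for Jak1 to 0.14 for Stat5a and a median of 0.04, or 0.04 without pair 3, beside -0.03 over all genes. Stat5a and Stat5b, the factors of IL-2 and IL-7 signals, had 0.14 (SE 0.111, adjusted p = 0.893) and 0.05 (SE 0.110, adjusted p = 0.960). Stat6, the factor of IL-4 signals, had -0.04 (SE 0.105, adjusted p = 0.966), and Jak1, a kinase that these receptors activate, had -0.05 (SE 0.107, adjusted p = 0.958). Without pair 3 these 4 were 0.08, 0.12, 0.003 and -0.006.

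Signalling itself was not measured on these arrays, and genes that these cytokines can induce were listed instead. Of 13 tested, 0 passed over all genes. The median difference was -0.08, with 5 positive and 8 negative. Without pair 3 the median turned to 0.007, with 7 positive and 6 negative, and without pair 1 it was -0.19. Cish, a feedback inhibitor induced through STAT5, read 9.28, 9.36, 9.62 and 9.33 in wt arrays and 9.17, 9.02, 9.09 and 8.95 in Irak1-/- arrays. Its groups did not overlap, as for 1.86% of all genes in this direction, and the difference was -0.34 (SE 0.114, 95% confidence interval -0.60 to -0.08, adjusted p = 0.603). Socs1, another feedback inhibitor of JAK kinases, read 6.92, 6.69, 7.43 and 7.10 in wt arrays and 7.12, 6.92, 7.88 and 7.30 in Irak1-/- arrays, with overlapping groups. It was higher in 4 of 4 pairs, by 0.27 in the fit (SE 0.108, adjusted p = 0.708), the opposite sign to Cish. Socs2, also induced through STAT5, read 5.35, 5.77, 6.14 and 6.38 in wt arrays and 6.03, 5.48, 3.96 and 5.14 in Irak1-/- arrays. Its difference was -0.76 (SE 0.375, adjusted p = 0.792), and within pairs 1 to 4 it differed by 0.68, -0.29, -2.18 and -1.24. Like Il2ra it was higher in pair 1 and lower in the other 3, and without pair 3 its difference was -0.28 (SE 0.298, adjusted p = 0.934). Cish and Socs1 had -0.27 and 0.21 without pair 3. Pim1, a survival kinase, had -0.23 (SE 0.114, adjusted p = 0.792) and was lower in 3 of 4 pairs. Bcl2, the survival factor that IL-7 sustains, and Myc, the growth regulator, had 0.001 and 0.01. Mean within-pair differences of the 13 genes were 0.14, -0.07, -0.41 and -0.13, lowest in the pair whose Irak1-/- array stood apart. Bcl2 and Myc were chosen after their values were seen.

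**Figure D4:**
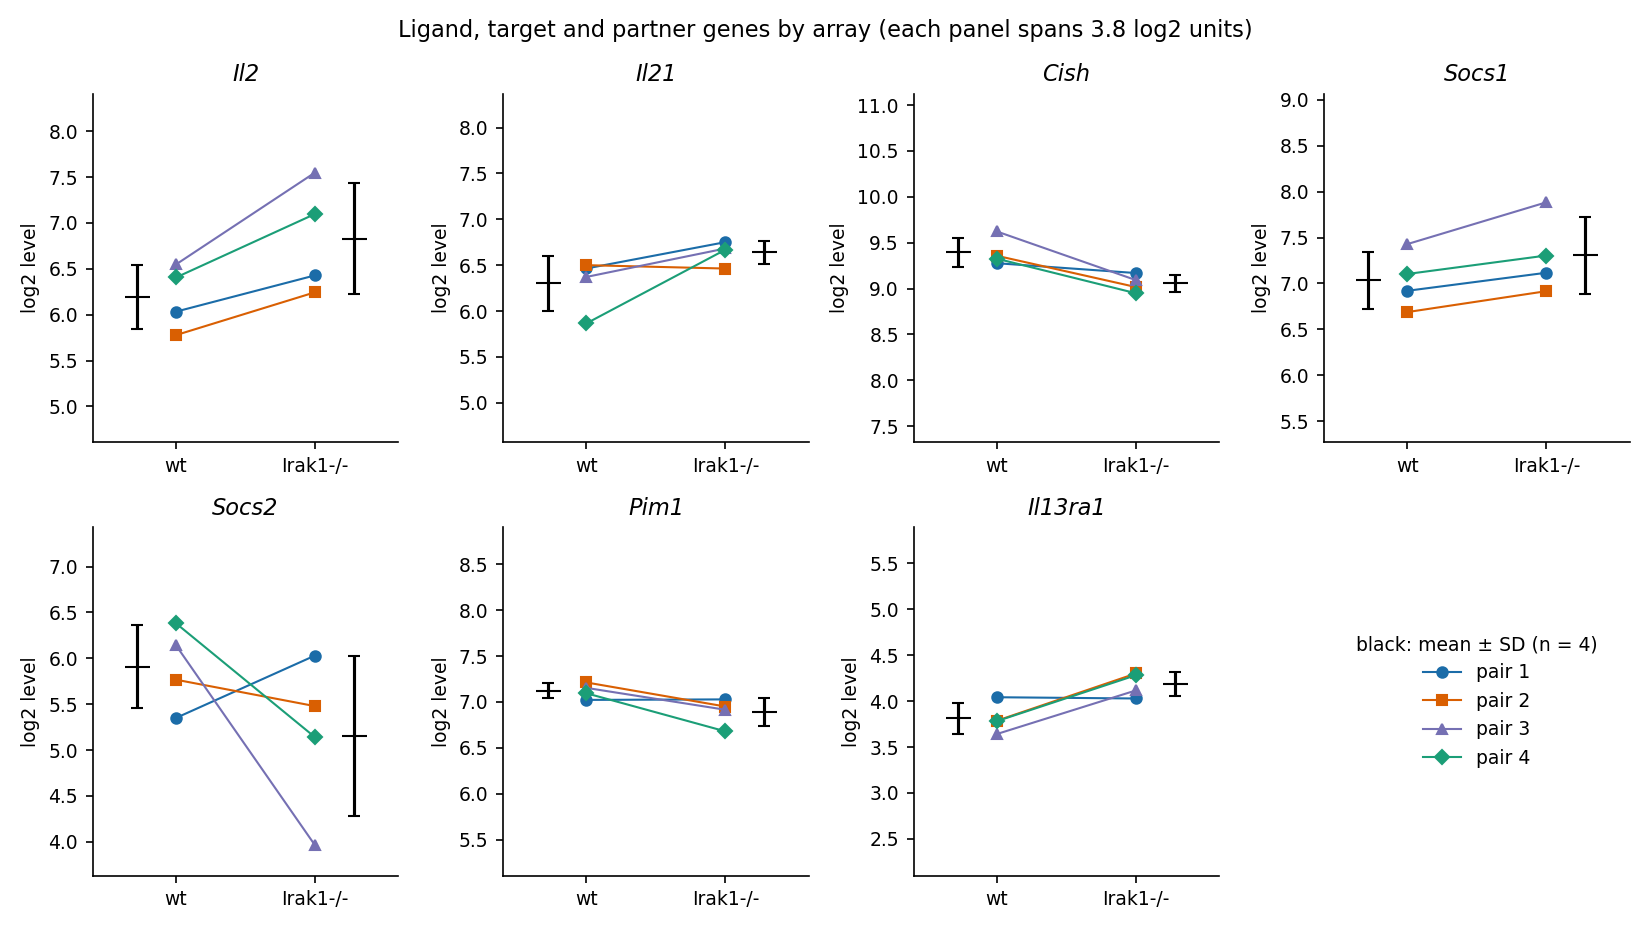
Log2 level (vertical axis) of the ligands Il2 and Il21, the cytokine-induced genes Cish, Socs1, Socs2 and Pim1 and the partner chain Il13ra1 on each wt and Irak1-/- array, with a line joining the arrays of a pair and black bars for the mean ± SD of 4 arrays. Every line of Il2 and Socs1 goes up and every line of Cish goes down from wt to Irak1-/-, while Socs2 runs from 3.96 to 6.03 over the Irak1-/- arrays.

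Transcription factors known to act on the receptor genes were tested as a further list of 8, and 0 passed. The median difference was -0.07, with 7 negative and 1 positive, where 58.1% of all genes tested were negative. Without pair 3 it was -0.04, with 5 negative and 3 positive. Tbx21, which drives Il2rb in Th1 and NK cells, had -0.23 (SE 0.168, adjusted p = 0.891). Gabpa, an ETS factor that acts on Il7r, had -0.21 (SE 0.109, adjusted p = 0.806). Runx3 and Runx1 had -0.19 (SE 0.142) and 0.09 (SE 0.103), with adjusted p of 0.893 and 0.934. Without pair 3, Tbx21, Gabpa, Runx3 and Runx1 had -0.04, -0.20, -0.05 and 0.10.

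Markers of T cell states in which these receptors are high were set beside them. Of 8 markers of regulatory T cells, which carry much CD25 and little CD127, 7 were tested and 0 passed, with a median of 0.01 and differences from -0.09 to 0.13. Nrp1, Ctla4, Ikzf4 and Ikzf2 had -0.09, 0.08, -0.09 and 0.13, and Foxp3, the regulator of these cells and chosen after its value was seen, had -0.06 (SE 0.125, adjusted p = 0.960). Foxp3 differed by 0.12, -0.30, -0.23 and 0.19 in pairs 1 to 4, beside 0.27, -0.26, -0.44 and -0.58 for Il2ra. Both had the same sign in pairs 1, 2 and 3 and opposite signs in pair 4, which was not tested. Without pair 3 the list median was 2.3e-05, and Ikzf2 had 0.007. Of 6 genes of naive and central memory cells, which carry CD127, 4 were tested and 0 passed. Ccr7, the lymph node homing receptor, had 0.43 (SE 0.113, adjusted p = 0.430) and lay above wt in each of the 4 pairs, while Lef1, S1pr1 and Klf2 had -0.02, -0.09 and -0.03. Without pair 3 these 3 turned to 0.14, 0.11 and 0.09 beside 0.37 for Ccr7, and the list median went from -0.02 to 0.12.

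Markers of other cells that carry these receptors were measured on the same arrays. NK, ILC and CD8 T cells carry Il2rb, and of 7 markers tested 0 passed, with 4 negative and 3 positive differences, a median of -0.51 and negative pair means in 4 of 4 pairs, from -0.41 to -0.16. The median was -0.41 without pair 3 and -0.30 without pair 4. Klrd1, Klrk1, Klre1 and Cd8a had -0.55, -0.51, -0.66 and -0.55, with adjusted p from 0.401 to 0.612. The other 3, Klrb1c, Ncr1 and Cd8b1, chosen after their values were seen, had 0.04, 0.05 and 0.31. The mean log2 level of all 7 was between 5.74 and 5.79 in wt and between 5.33 and 5.58 in Irak1-/- arrays, beside a difference of -0.03 for Il2rb. The 7 lay at unlike levels. Klrd1 had means of 9.90 in wt and 9.34 in Irak1-/- arrays, above Cd4 at 9.04 and 8.92. Klrb1c had 3.92 and 3.95 and Ncr1 had 3.91 and 3.96, close to the lowest mean level tested of 3.90. Whether the differences of this list follow the number of NK, ILC or CD8 T cells was not tested. B cells carry Il21r and Il4ra, and of 6 markers 4 were tested and 0 passed, with a median of -0.02 and Cd79a, Cd79b, Pax5 and Cd22 at -0.01, -0.27, 0.08 and -0.02, and the median was also -0.02 without pair 3. The myeloid genes that rose were Lyz2, Tyrobp, Fcer1g, H2-Aa and Clec4a3, with Lyz2 at 4.16 (SE 0.302, adjusted p = 0.00161) and Clec4a3, chosen after its value was seen, at 1.76 (SE 0.225, adjusted p = 0.0420). The call of Clec4a3 was lost without pair 3 (1.55, adjusted p = 0.0831). The wt means of Lyz2 and Clec4a3 were 3.84 and 3.03, under the lowest mean level tested of 3.90. Both therefore passed the level filter only through their Irak1-/- levels. The rest of the myeloid markers tested, named after their values were seen, did not pass. S100a8, S100a9 and Csf1r had 2.62, 1.05 and 0.72, while Adgre1, Cd68, Itgam and Cst3 had 0.27, 0.16, 0.05 and -0.005. Among T cell markers 0 of 10 passed, with Trat1, Cd6, Cd4 and Thy1 at 0.31, 0.19, -0.12 and -0.06 and a median of -0.01, which turned to 0.03 without pair 3.

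**Figure D5:**
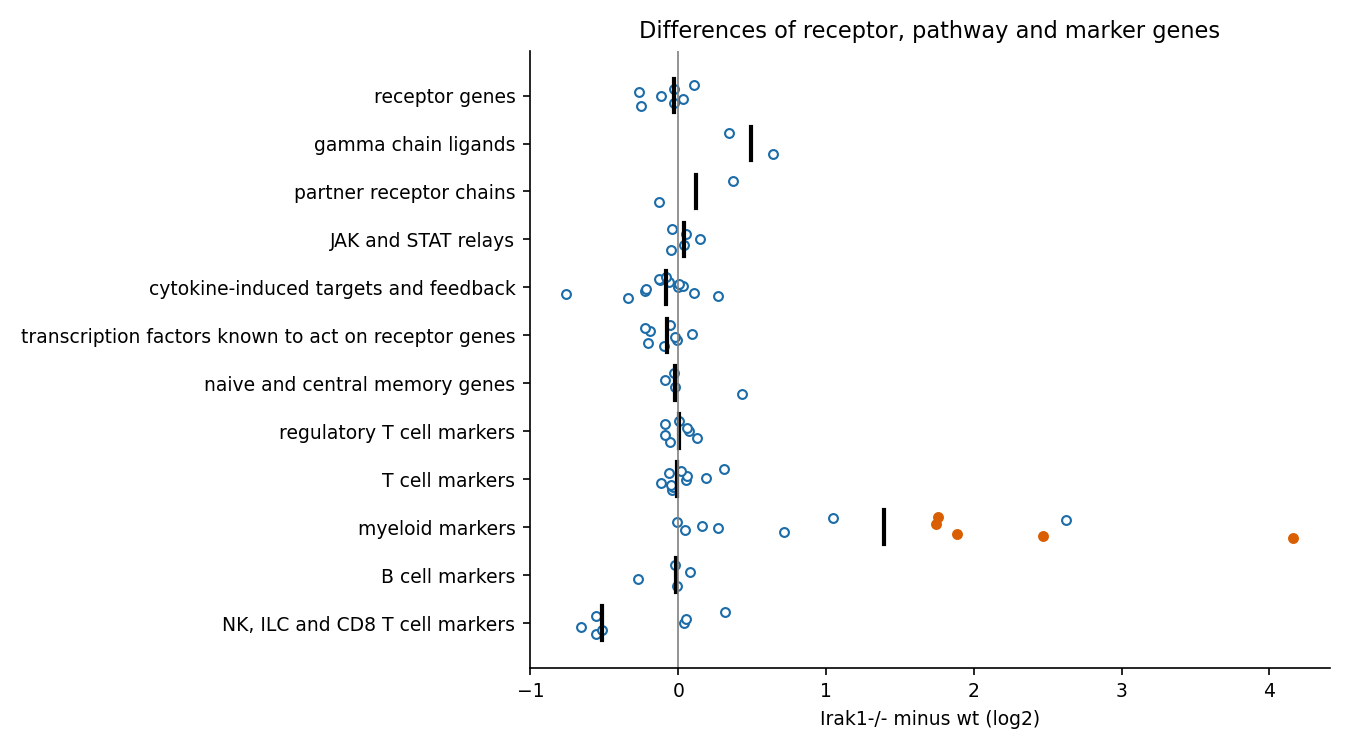
Differences (Irak1-/- minus wt, log2, horizontal axis) of the receptor genes, the pathway genes and the marker genes tested, 1 point a gene, filled orange where the limma adjusted p was under 0.05, with a black line at the median of each list. The receptor genes lie between -0.27 and 0.10, and the 5 filled points are all myeloid markers, whose median is 1.39.

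The genes whose levels followed the most variable members most closely over the 8 arrays were found by Pearson's r among 13301 other genes tested. For Il2ra these were Gas2l1, Hyou1 and Nomo1, with r of 0.972, 0.972 and 0.964 and differences of -0.19, -0.22 and -0.21. For Il9r they were Ank1, Prpf6 and Sez6l, with r between 0.950 and 0.958, and for Il2rb Top1, Gpatch8 and Cpsf6, with r between 0.978 and 0.988. These are the highest of many values over 8 arrays that share recipients in pairs, and are given as a description without a test. None of the 9 passed over all genes, the lowest adjusted p being 0.697, for Ank1.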

How the data were processed

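For 8 arrays the authors deposited log2 values of 41345 probe sets. RNA was labelled by the standard Affymetrix protocol, per the labels. Background correction and summarization were not given in the sources used here, and neither was the normalization. Values ran from 0.681 to 14.0.

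Probe sets were named by the platform's annotation, with symbols updated by gene identifier from the GRCm38.p6 gene table. Of all probe sets, 23521 carried 1 symbol, 1814 several and 16010 were unnamed here. For each gene the probe set with the highest mean level was kept, and genes under the 40th percentile of mean level were dropped, so that 13308 genes with means of 3.90 or more were tested. The comparison of genotypes used lmFit and eBayes of limma 3.58.1 in R 4.3.3, with the batch label as a block, two-sided, with Benjamini-Hochberg adjustment over all genes, and an adjusted p under 0.05 was called. The procedure was tested on simulated data.

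The labels give 1 array of each genotype per batch, from the same pooled recipients. Deviations from the group means correlated within pairs 1 to 4 at 0.185, 0.143, 0.200 and 0.0799, and between wt and Irak1-/- arrays of different pairs at -0.222 to 0.226, so the pairing rests on the labels. Whether recipients of different experiments were separate cohorts is not given, so p-values measure the spread between these pairs.

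The members and lists were chosen with earlier results of these data known. Named are the members, for each list the 4 or fewer genes of smallest p, and, for the 3 members with the largest SD, the 3 genes with the highest r. Any other gene is named where needed or said to be chosen after its value was seen. Alternatives changed the block (none or random), the scaling (quantile or median), the level filter (none or the 60th percentile), the probe sets (their mean, or each on its own) and eBayes (trend and robust). Others were leaving out each pair, and leaving out the Irak1-/- array of replicate 3 without a block.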

Additional observations from a re-analysis of the deposited data

How the results depend on the processing

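In each of the 14 alternatives 0 receptor genes were called in either direction, and the lowest adjusted p of any member was 0.643. For 7 of the alternatives (the block, the level filter, the probe sets and eBayes) the paired design and the single probe set of each member fix its difference, and only its error can change. In the other 7, 42 of 49 differences kept their direction. Those that turned were Il15ra without replicate 2 (0.016) and 4 (0.019), Il2rb without replicate 2 (0.0077), without replicate 3 (0.107) and in the fit without a block and without the Irak1-/- array of replicate 3 (0.092), and Il4ra without replicate 3 (-0.030) and in that same fit (-0.017). All lay within 1 standard error of 0, and the cause was not tested. With each pair left out in turn, Il2ra ran from -0.42 to -0.14, Il2rb from -0.18 to 0.11, Il4ra from -0.030 to 0.077, Il7r from -0.22 to -0.06, Il9r from -0.35 to -0.21, Il15ra from -0.085 to 0.019 and Il21r from 0.05 to 0.13. Without the replicate block the limma difference of Il2ra is -0.25 by construction, with an SE of 0.186 (adjusted p = 0.988). The widest limits of the members' intervals were a 1.66-fold lower level, for Il2ra without replicate 1, and a 1.36-fold higher level, for Il2rb without replicate 2.

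Over all genes, 9 were called higher and 1 lower. With the random replicate block 14 and 2 were called, with median centring also 14 and 2, with the 60th percentile filter 2 lower, and with trend and robust settings 3 lower. With each pair left out, 6 to 16 were called higher and 1 lower, the 16 without replicate 1. Of 154 medians of lists, 148 moved by less than the SD between pairs or not at all. Changing the block, using each probe set on its own, and trend and robust eBayes left every list median at its main value. Medians under those settings are among the 148 and do not test stability. The other 6 moved by more than the SD between pairs. These were the ligands at 0.12 without the level filter, where all 6 counted, the myeloid markers at 0.88 without it and 1.81 with the 60th percentile filter, the B cell markers at -0.27 and the partner chains at -0.13 with that filter, and the list of NK, CD8 T cell and ILC markers at -0.30 without replicate 4. The signal over background is unknown for these arrays.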
